A study of Mus musculus with 24 samples.

Results

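Bafilomycin A1 (BafA1), a macrolide that blocks the proton pump of lysosomes, was compared with its solvent DMSO after 7 h in cultured mouse microglia, the resident macrophages of the brain. The comparison holds the 6 libraries whose titles give 7 hours, of 24 libraries in the series. These are 3 libraries from cells given 50 nM BafA1 for 7 h and 3 from cells given the same share of DMSO for 7 h. All were primary wild-type microglia from newborn cortex and hippocampus, shaken off mixed glial cultures, so other glia may have been carried along. The replicates carry numbers 1 to 3, but no litter or flask is named. The p-values below therefore measure only the spread between libraries of the same group, estimated over all 24 libraries of the series. Of 56980 genes in the table, 12648 passed a filter on low counts and were tested.

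The vacuolar ATPase (V-ATPase) is a rotary pump in which a cytosolic V1 sector splits ATP and a membrane V0 sector carries protons into the lumen. BafA1 binds the V0 sector and stops it. Acid keeps lysosomal hydrolases active, releases iron from transferrin, and lets cholesterol from endocytosed lipoproteins leave the lysosome. Rag GTPases and folliculin sit on the lysosome surface and relay its state to mTORC1 and to the transcription factors TFEB, TFE3 and MITF, which bind the CLEAR element of lysosomal genes. Microglia depend on this system to digest the myelin, debris and cells that they engulf.

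Libraries were 3′ tag counts in which reads sharing a molecular identifier count once. The 3 BafA1 libraries held 1322169 to 2457398 counts and the 3 DMSO libraries 2102742 to 3187209. A floor of 3 counts was therefore worth 1.22 to 2.27 CPM (counts scaled to the size of the library) in BafA1 libraries and 0.941 to 1.43 CPM in DMSO libraries, for counting error only. CPM values of single genes below were also scaled between libraries by TMM. Mitochondrial transcripts took 4.04 to 4.83% of counts in BafA1 libraries and 4.68 to 5.35% in DMSO libraries. Of the defining markers of microglia over the 6 libraries, Cx3cr1 lay between 1013 and 2796 CPM, and Csf1r between 600.2 and 1055 CPM. Tyrobp lay between 1039 and 1465 CPM, C1qa between 474 and 960 CPM and Aif1 between 114 and 286 CPM. P2ry12, at 8.83 to 26.2 CPM, and Tmem119, at 2.4 to 15 CPM, were low in every library.

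After 7 h of BafA1, 903 genes differed from DMSO (edgeR quasi-likelihood test, Benjamini-Hochberg adjusted p under 0.05), which is 7.14% of those tested. Higher in BafA1 were 578 genes (4.57%) and lower were 325 (2.57%). These shares of all genes tested are the comparison for every list count below. Some lists share members, so a gene can be counted in several. The median log2 change over all genes tested was -0.021. All 903 changed in the same direction in each of the 3 same-numbered pairs. The calls were made from these same libraries, so this adds no support, and the share over all genes tested was not counted. In 895 the 3 BafA1 and 3 DMSO values did not overlap, a separation that 23.4% of all genes tested showed. Adding the replicate number to the fit, called the replicate block below, gave 1555 (12.3%), with 906 higher (7.16%) and 649 lower (5.13%). Leaving out each library in turn gave 573 to 804 genes, lowest without DMSO replicate 1, and 435 of the 903 kept their call in all 6 of these fits, or 48.2%. The number lower in BafA1 was 163 without DMSO replicate 1, 196 without BafA1 replicate 3, 201 without DMSO replicate 2 and 205 without BafA1 replicate 2. Since RNA was taken from whole cultures, fewer cells of a type and less RNA per cell cannot be told apart.

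**Figure D1:**
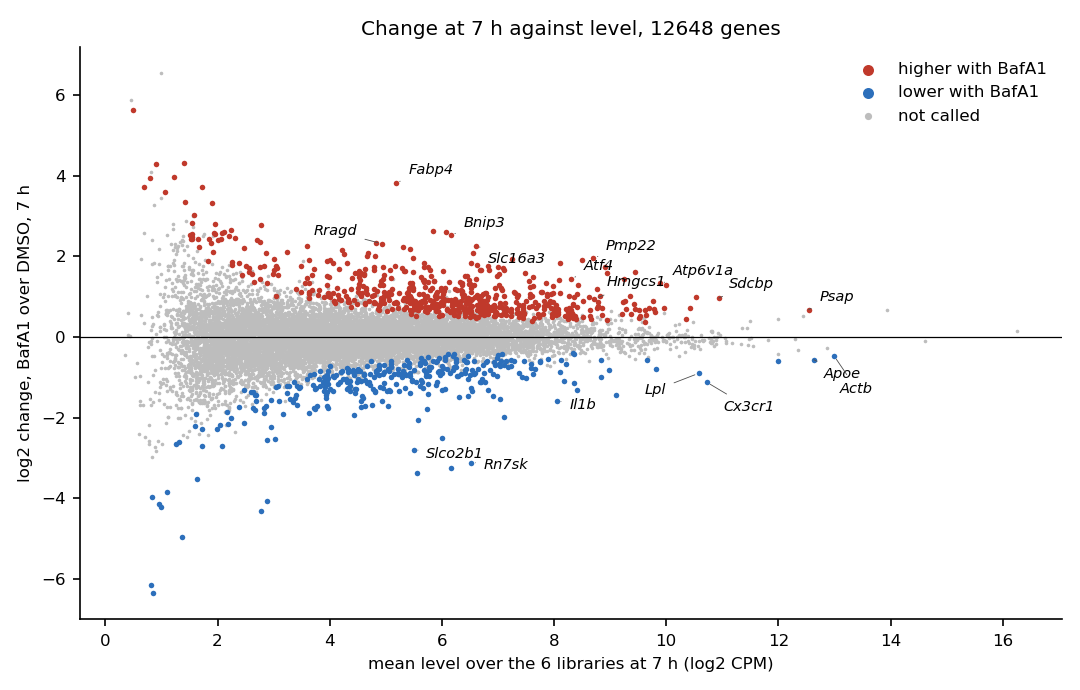
Log2 change, BafA1 over DMSO at 7 h (vertical axis), against the mean log2 CPM over the 6 libraries (horizontal axis) for the 12648 genes tested. Each point is a gene, with the 578 called higher in red, the 325 called lower in blue and the rest grey, and named genes are labelled.

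Among the 15 largest rises were genes of no list examined here. Ralgds, an exchange factor for Ral GTPases, measured 143, 145 and 135 CPM in the BafA1 libraries, against 16.6, 28.1 and 24.6 CPM in the DMSO libraries. B4galt5, a galactosyltransferase that makes lactosylceramide, measured 192, 143 and 158 CPM in the BafA1 libraries, against 29.6, 30 and 21.1 CPM in the DMSO libraries. Their log2 changes were 2.63 ± 0.23 and 2.61 ± 0.18 (± SE; edgeR adjusted p = 3.86e-08 and 1.04e-09), with no overlap between groups. Stx3, a plasma membrane syntaxin, rose by 2.08 on the log2 scale, Rgs1, a brake on G protein signalling, by 2.09, Ppp1r3b, a subunit that directs protein phosphatase 1 to glycogen, by 2.16, and Galnt6, which starts mucin-type glycosylation, by 2.11. Among the 15 largest falls, Tril, an accessory protein of toll-like receptor 4, measured 2.12, 3.2 and 3.61 CPM in the BafA1 libraries, against 14.2, 20.2 and 18 CPM in the DMSO libraries, a log2 change of -2.54 ± 0.33 (edgeR adjusted p = 9.81e-06). Slc46a3, a lysosomal transporter, changed by -1.91, Dapp1, an adaptor that binds phosphoinositides, by -1.89, Abi3, an adaptor of actin regulators, by -1.76, and Bmf, a pro-apoptotic BH3-only protein, by -1.71 (log2, all lower). These calls held whichever library was left out.

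Several transcripts of the pump that BafA1 blocks were higher. Of 20 V-ATPase genes tested, 10 were higher in BafA1 and none was lower, against 4.57% and 2.57% of all genes, with a median log2 change of 0.53. In the V1 sector 5 of 9 rose. Atp6v1a, the catalytic A subunit, measured 1613, 1600 and 1324 CPM in the BafA1 libraries, against 652, 624 and 532 CPM in the DMSO libraries, a log2 change of 1.33 ± 0.14 (edgeR adjusted p = 5.2e-07). The peripheral stalk subunits Atp6v1c1, Atp6v1g1 and Atp6v1e1 rose by 1.39, 0.70 and 0.57, and the central shaft subunit Atp6v1d by 0.99. Every BafA1 value of these 5 genes lay above every DMSO value, and the 5 calls held whichever library was left out. Atp6v1g2, the G subunit isoform of neurons, stood at 1.69, 3.2 and 0.803 CPM in the BafA1 libraries, against 4.31, 3.75 and 3.51 CPM in the DMSO libraries, and was not called (edgeR adjusted p = 0.422).

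In the V0 sector and its accessory proteins 5 of 11 rose, with a median of 0.50. Atp6v0c, the proteolipid of the proton-carrying ring, measured 1993, 1808 and 1492 CPM in the BafA1 libraries, against 1181, 1072 and 961 CPM in the DMSO libraries, and rose by 0.72 ± 0.14 (edgeR adjusted p = 0.00148). Tcirg1, the a3 isoform of the large V0 subunit, rose by 1.01 ± 0.22 (edgeR adjusted p = 0.00337). Atp6v0a1, another isoform of that subunit, rose by 0.66, but its edgeR adjusted p was 0.174 without BafA1 replicate 1 and 0.0813 without DMSO replicate 2. The V0 count was 2 without either of those libraries and 3 without BafA1 replicate 2 or DMSO replicate 3. With the replicate block 4 more pump genes passed: Atp6v1h, Atp6v1f, Atp6v0d1 and Atp6v0d2 (edgeR adjusted p = 0.0142, 0.00721, 0.00215 and 0.0178). The assembly factors Atp6ap1 and Atp6ap2 had log2 changes of 0.06 and 0.29 and were not called.

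Lysosomal hydrolases changed unevenly. Of 28 glycosidases and lipid hydrolases 7 rose and none fell (median 0.20). Gla, which removes terminal galactose from glycolipids, measured 148, 166 and 124 CPM in the BafA1 libraries, against 57.3, 50.6 and 45.7 CPM in the DMSO libraries, a log2 change of 1.50 ± 0.18 (edgeR adjusted p = 2.75e-06). Neu1, the lysosomal sialidase, rose by 0.92 ± 0.19, and Lipa, the acid lipase that frees cholesterol from its esters, by 0.70 ± 0.15 (edgeR adjusted p = 0.00241 and 0.00351). These 3 calls held whichever library was left out. The count was 3 without BafA1 replicate 1 or DMSO replicate 3 and 4 without BafA1 replicate 2. Gusb, the beta-glucuronidase, was not called (-0.0045). Of 15 proteases 2 rose and 1 fell. Dpp7, a dipeptidase, measured 108, 132 and 92.3 CPM in the BafA1 libraries, against 66.2, 67.5 and 43.9 CPM in the DMSO libraries, and its call was lost without BafA1 replicate 2 or DMSO replicate 3 (edgeR adjusted p = 0.0859 and 0.0827). No protease was called higher without either of these, and 1 was without BafA1 replicate 1, DMSO replicate 1 or DMSO replicate 2. The protease that fell, Ctsc, activates serine proteases of myeloid cells, and measured 265, 215 and 184 CPM in the BafA1 libraries, against 573, 482 and 417 CPM in the DMSO libraries. With the replicate block 6 proteases were higher and 2 lower, among them Ctsd, the main aspartic protease, at 4837, 5346 and 4233 CPM in the BafA1 libraries, against 3609, 3927 and 3025 CPM in the DMSO libraries (log2 change 0.45 ± 0.18; edgeR adjusted p = 0.000162 with the block and 0.156 without).

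Of 28 lysosomal membrane genes 7 rose and none fell (median 0.35). Clcn7, the chloride-proton exchanger, measured 96.9, 126 and 76.3 CPM in the BafA1 libraries, against 37, 33.3 and 22.8 CPM in the DMSO libraries, a log2 change of 1.66 ± 0.23 (edgeR adjusted p = 1.93e-05). Hgsnat, which acetylates heparan sulfate at the membrane, rose by 1.21 ± 0.16 (edgeR adjusted p = 1.01e-05). Mfsd12, which imports cysteine, rose by 1.08 ± 0.19 (edgeR adjusted p = 0.000483). In each of these 3 genes the lowest BafA1 value exceeded the highest DMSO value. The ion channel gene Mcoln2 rose by 1.75 ± 0.45 at low counts, and its call was lost without BafA1 replicate 1, DMSO replicate 2 or DMSO replicate 3 (edgeR adjusted p = 0.109, 0.0637 and 0.0777). Mcoln1, the channel through which lysosomes release calcium, stood at 11.4, 6.4 and 13.2 CPM in the BafA1 libraries, against 4, 10.8 and 3.95 CPM in the DMSO libraries, with overlapping groups. Lamp1 and Lamp2, the main glycoproteins of the membrane, had log2 changes of -0.033 and -0.21, and Lamp1 stood at 777, 666 and 634 CPM in the BafA1 libraries, against 781, 733 and 610 CPM in the DMSO libraries.

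The palindrome TCACGTGA, the core of the CLEAR element, was searched in RefSeq promoters of GRCm38.p6, each 250 bases before to 50 after a gene start. The palindrome reads the same on both strands, always holds the E-box CACGTG, and occurred in 0.974% of 32851 promoters. The share among pump, lysosome and Rag genes is void as a check, since 84 of the 106 members tested had a promoter entry, under the 80% required. Windows of 60 bases around the match in 3 genes that rose are shown, with the match in capitals.
Gla, chrX:134601196-134601255, minus strand: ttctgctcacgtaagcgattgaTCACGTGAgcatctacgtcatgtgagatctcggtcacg
Atp6v1a, chr16:44139357-44139416, minus strand: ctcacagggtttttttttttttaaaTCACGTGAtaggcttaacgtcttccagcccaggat
Dpp7, chr2:25356372-25356431, minus strand: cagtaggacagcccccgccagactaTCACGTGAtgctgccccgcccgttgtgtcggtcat
A match is a description of these letters and says nothing of binding.

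Some genes of the nutrient-sensing machinery on the lysosome surface were higher. Of 15 genes of MiT/TFE factors, Rag GTPases, their Ragulator anchor and folliculin, 6 rose and none fell, with a median of 0.028. Rragd, a Rag GTPase, measured 64.3, 80 and 57 CPM in the BafA1 libraries, against 16, 11.2 and 12.3 CPM in the DMSO libraries, a log2 change of 2.31 ± 0.23 (edgeR adjusted p = 1.98e-07). Its relative Rragc measured 395, 383 and 330 CPM in the BafA1 libraries, against 189.5, 183 and 145 CPM in the DMSO libraries, whereas Rraga, their dimer partner, had a log2 change of -0.072 and was not called. Fnip2 and Fnip1, the partners of folliculin, rose by 1.78 ± 0.22 and 0.87 ± 0.17. Lamtor3 was the single Ragulator subunit of 5 that passed, at 129, 125 and 116 CPM in the BafA1 libraries, against 64.7, 59.5 and 63.7 CPM in the DMSO libraries. The other 4 were not called. Flcn itself rose by 0.76 ± 0.21, and lost its call without BafA1 replicate 1 or 2 or DMSO replicate 1 or 3 (edgeR adjusted p = 0.12, 0.089, 0.0857 and 0.107). Transcripts of the factors stood at overlapping levels: 155, 222 and 139 CPM in the BafA1 libraries, against 189.5, 180.5 and 137 CPM in the DMSO libraries for Tfe3, and log2 changes of 0.028 for Tfeb and 0.074 for Mitf.

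Autophagy genes were called in 1 of 31 and 2 of 13 members of their lists (3.23% and 15.4%), against 7.14% of all genes. Of the 31 genes for initiation, elongation and tethering 1 passed, Tecpr1, which binds lysosomes and damaged membranes, at 98.2, 90.4 and 71.9 CPM in the BafA1 libraries, against 21.9, 23 and 22 CPM in the DMSO libraries (log2 change 1.96 ± 0.23; edgeR adjusted p = 2.75e-06). Of the 13 cargo receptors and LC3 family genes 2 rose, Sqstm1 (0.82), the p62 receptor, and Optn (1.11), the receptor optineurin, and with the replicate block 4 did. The call of Optn was lost in each of the 6 fits with a library left out, with an edgeR adjusted p between 0.0634 (without BafA1 replicate 2) and 0.193 (without BafA1 replicate 1). Map1lc3b, the usual LC3, stood at 397, 402 and 395 CPM in the BafA1 libraries, against 419, 337 and 344 CPM in the DMSO libraries, and did not pass. Among 26 genes of HOPS tethers, retromer and endosome transport 4 rose, and 7 did with the replicate block. Arl8a, a small GTPase that couples lysosomes to kinesin, rose by 0.75 ± 0.14 and its relative Arl8b by 0.57 ± 0.13, the second not without a filter on low counts (edgeR adjusted p = 0.0844). Vps29 of the retromer rose by 0.68 ± 0.14 (edgeR adjusted p = 0.00256).

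**Figure D2:**
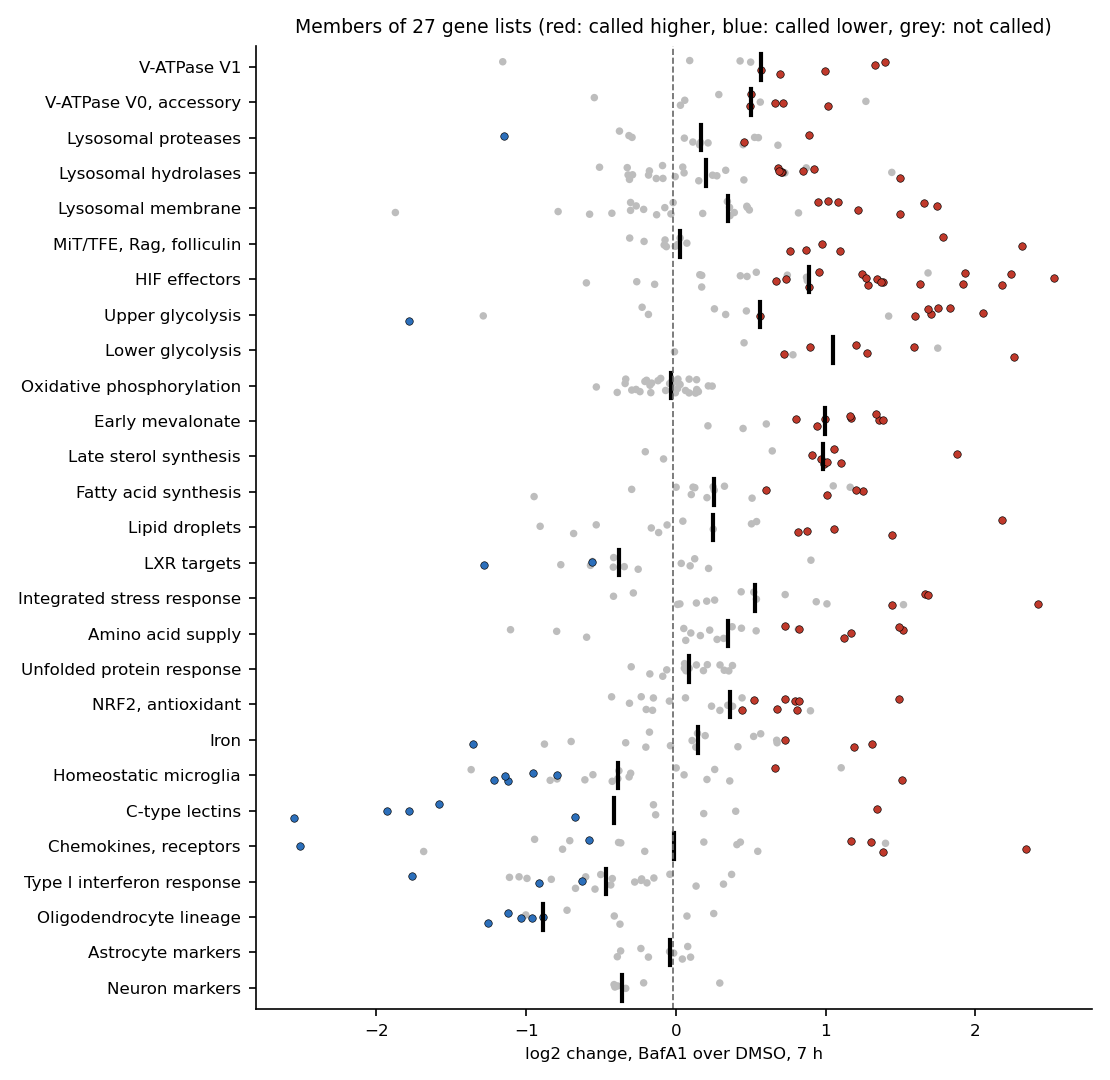
Log2 change at 7 h, BafA1 over DMSO (horizontal axis), of every tested member of 27 gene lists (rows). Each point is a gene, red where called higher, blue where called lower and grey where not called; vertical bars mark the list medians and the dashed line the median of all genes, -0.021, and the V1 sector median lies at 0.57.

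Genes of metal handling changed in part. Of 19 iron genes 3 rose and 1 fell, and with the replicate block 6 rose. Tfrc, the transferrin receptor, measured 151, 124 and 147 CPM in the BafA1 libraries, against 62.9, 46.4 and 61 CPM in the DMSO libraries, a log2 change of 1.31 ± 0.16 (edgeR adjusted p = 2.96e-06). Slc11a2, the transporter that moves iron out of endosomes, measured 145, 88.8 and 106 CPM in the BafA1 libraries, against 55.8, 46.4 and 47.4 CPM in the DMSO libraries, a log2 change of 1.19 ± 0.20 (edgeR adjusted p = 0.000218). Hfe, which competes with transferrin for its receptor, measured 25.8, 12 and 14.1 CPM in the BafA1 libraries, against 51.5, 50.6 and 34.3 CPM in the DMSO libraries and fell by 1.36 on the log2 scale (edgeR adjusted p = 0.00659). None of these groups overlapped. Fth1, the ferritin heavy chain, stood at 19140, 25250 and 15680 CPM in the BafA1 libraries, against 11760, 15410 and 10420 CPM in the DMSO libraries, and passed only with the block (edgeR adjusted p = 0.000536, and 0.107 without). Of 10 zinc and copper genes 3 rose and none fell, although 2 were lower with the block: the copper importer Slc31a1 (0.86 ± 0.16), the copper pump Atp7a (0.73 ± 0.15) and the metallothionein Mt1 (0.67 ± 0.14).

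Targets of hypoxia-inducible factor (HIF) were called higher in 16 of 29 cases outside glycolysis (55.2%), against 4.57% of all genes. HIF drives genes that adapt cells to low oxygen, and its alpha subunit is marked for destruction by prolyl hydroxylases. None of these HIF effectors fell (median 0.89), and 13 of the 16 kept the call whichever library was left out. Glycolysis genes are counted apart below, and Pfkfb4 among them fell. Bnip3, a mitophagy receptor of the outer mitochondrial membrane, measured 189, 164 and 161 CPM in the BafA1 libraries, against 35.7, 29.5 and 23.3 CPM in the DMSO libraries (edgeR adjusted p = 1.13e-08). Higd1a, a protein of the inner mitochondrial membrane, measured 278, 342 and 264 CPM in the BafA1 libraries, against 127, 118 and 127 CPM in the DMSO libraries, and Bhlhe40, a repressor that also acts on the clock, measured 72.8, 68.8 and 70.7 CPM in the BafA1 libraries, against 22.2, 17.4 and 29 CPM in the DMSO libraries. In none of the 3 did the groups overlap. Ak4, a mitochondrial adenylate kinase, rose by 1.92 ± 0.36, P4ha2, a collagen prolyl hydroxylase, by 1.93 ± 0.41, and Vegfa, the vascular growth factor, by 1.38 ± 0.31 (edgeR adjusted p = 0.00104, 0.00328 and 0.00447). In DMSO replicate 3 Ak4 and Vegfa were higher, at 14.5 and 29.9 CPM, than in the other DMSO libraries. Other known HIF targets did not pass, such as Ndrg1 (0.74) and Ddit4 (0.88).

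Among 11 genes of oxygen sensing 3 rose. The prolyl hydroxylases Egln3 and Egln1, themselves targets of HIF, rose by 1.61 ± 0.26 and 1.11 ± 0.17, and Egln3 measured 77.4, 83.2 and 70.7 CPM in the BafA1 libraries, against 25.9, 23.9 and 25.5 CPM in the DMSO libraries. Egln2, the third isoform, had a log2 change of -0.035 and did not pass. Hif1a stood at 536, 499 and 403 CPM in the BafA1 libraries, against 368, 337 and 304 CPM in the DMSO libraries, a log2 change of 0.51 ± 0.15. Its edgeR adjusted p was 0.0296 with all libraries, 0.156 and 0.0963 without BafA1 replicates 1 and 2, and 0.0857 and 0.105 without DMSO replicates 2 and 3. Without a filter it was 0.0763.

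The core of the hypoxia response element, ACGTGC on either strand, was found in 18 of 46 promoters (39.1%) of the 31 HIF and glycolysis genes called higher that had an entry. It was found in 25 of 83 promoters (30.1%) of the members tested and in 5.91% of all promoters. Among promoters of all genes tested the share was 8.09%, and among those of all genes called higher 11.7%. ACGTGC can overlap the E-box CACGTG. The 3 windows below belong to genes with large rises and show the first match in capitals.
Bnip3, chr7:138909581-138909640, minus strand: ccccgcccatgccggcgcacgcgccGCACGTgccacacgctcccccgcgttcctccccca
Slc16a3, chr11:120949007-120949066, plus strand: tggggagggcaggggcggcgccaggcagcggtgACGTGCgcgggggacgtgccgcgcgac
Ero1a, chr14:45318602-45318661, minus strand: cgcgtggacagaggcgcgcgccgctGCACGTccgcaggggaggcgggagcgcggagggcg
Slc16a3 exports lactate and Ero1a reoxidises disulfide isomerases in the endoplasmic reticulum. The match counts rest on promoter letters, and the occupancy of these sites was not measured.

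Many genes of glucose use were higher. Of 25 genes of glucose uptake, glycolysis and lactate export 13 were higher in BafA1 and 1 lower, with a median log2 change of 0.89, and 10 of the 13 kept the call whichever library was left out. Slc2a1, the glucose transporter GLUT1, measured 328, 362 and 246 CPM in the BafA1 libraries, against 110.3, 111 and 87.4 CPM in the DMSO libraries, a log2 change of 1.60 ± 0.15 (edgeR adjusted p = 1.04e-07). Hexokinase 3, Hk3, rose by 1.68 ± 0.26 and Hk2 by 1.70 ± 0.18, whereas Hk1 (0.33) did not pass. Pfkl, the liver isoform of phosphofructokinase, rose by 2.05 ± 0.22, while the muscle isoform Pfkm (-1.29) and platelet isoform Pfkp (0.26) did not pass. Pfkfb3 and Pfkfb4, bifunctional enzymes that set fructose 2,6-bisphosphate, passed in opposite directions. Pfkfb3 measured 214, 219 and 194 CPM in the BafA1 libraries, against 72.4, 68.9 and 43.9 CPM in the DMSO libraries, and Pfkfb4 measured 7.19, 9.6 and 4.42 CPM in the BafA1 libraries, against 25.6, 24.9 and 19.3 CPM in the DMSO libraries (edgeR adjusted p = 2.13e-06 and 0.000791).

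In the lower part of the pathway, with lactate export, 6 of 10 genes rose. Pgam1, phosphoglycerate mutase, measured 892, 857 and 832 CPM in the BafA1 libraries, against 316, 289 and 250.3 CPM in the DMSO libraries. Pgk1, phosphoglycerate kinase, measured 655, 701 and 625 CPM in the BafA1 libraries, against 295, 298 and 268 CPM in the DMSO libraries, and Ldha, the lactate dehydrogenase A chain, measured 1578, 1694 and 1483 CPM in the BafA1 libraries, against 699, 637 and 624 CPM in the DMSO libraries. Their log2 changes were 1.59 ± 0.14, 1.20 ± 0.12 and 1.28 ± 0.13 (edgeR adjusted p = 8.2e-08, 2.64e-07 and 2.45e-07), with no overlap between groups. Ldhb, the chain favoured by respiring tissue, had a log2 change of -0.0091 and did not pass. Aldoa and Gapdh lost their calls without BafA1 replicate 2 (edgeR adjusted p = 0.0579 and 0.1). Eno1, an enolase, lost its call without BafA1 replicate 1 or 2 or DMSO replicate 1 or 3 (edgeR adjusted p = 0.0581, 0.207, 0.157 and 0.136). Gapdh, Pgk1, Ldha, Pgam1 and Tpi1 have many processed copies in the genome that can share reads, so their values are less certain. Around this pathway, Pgm1, which links glycogen to glycolysis, measured 54.6, 92 and 65.8 CPM in the BafA1 libraries, against 19.7, 23.4 and 20.6 CPM in the DMSO libraries, and Pdk1, the kinase that shuts pyruvate out of the tricarboxylic acid cycle, measured 50.4, 69.6 and 65 CPM in the BafA1 libraries, against 41.3, 30.9 and 21.5 CPM in the DMSO libraries. Pdk1 was the single gene of 21 for pyruvate entry and that cycle to pass (4.76%, against 7.14% of all genes). None of 33 nuclear genes of oxidative phosphorylation passed (edgeR, with 2 lower under the replicate block). Among the pentose phosphate genes, G6pdx (-0.16), Pgd (-0.019) and Tkt (0.016) did not pass.

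**Figure D3:**
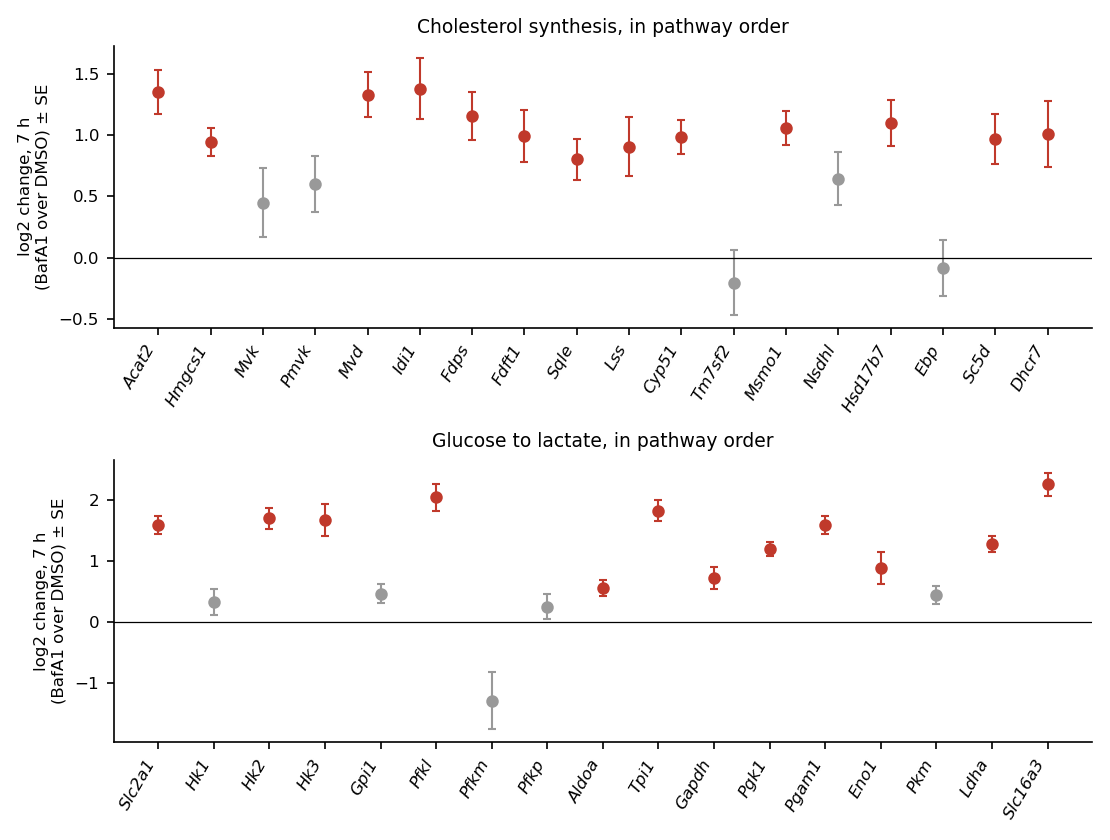
Log2 change at 7 h, BafA1 over DMSO, with its SE (vertical axes), for 18 enzymes of cholesterol synthesis (upper panel) and for the steps from glucose uptake to lactate export (lower panel) in pathway order. Red points were called higher and grey points were not called; Acat2 in the upper panel lies at 1.35 and Slc16a3 in the lower at 2.26.

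Most enzymes of cholesterol synthesis were higher. Of 21 enzymes, 15 rose and none fell, with a median log2 change of 0.99, and 13 of the 15 kept the call whichever library was left out. In the early mevalonate part 8 of 11 rose. Mvd, mevalonate diphosphate decarboxylase, measured 60.9, 66.4 and 73.5 CPM in the BafA1 libraries, against 22.8, 30.9 and 26.4 CPM in the DMSO libraries, a log2 change of 1.33 ± 0.18 (edgeR adjusted p = 1.93e-05). Fdps, which makes farnesyl diphosphate, rose by 1.16 ± 0.20, Fdft1, which makes squalene, by 1.00 ± 0.21, and Sqle, which oxidises squalene, by 0.81 ± 0.17. Mvk (0.45) and Pmvk (0.60) did not pass.

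In the late sterol part 7 of 10 rose. Msmo1, a sterol C4 oxidase, measured 301, 344 and 365 CPM in the BafA1 libraries, against 159, 166 and 160.3 CPM in the DMSO libraries, and Cyp51, the lanosterol demethylase, measured 161, 142 and 173 CPM in the BafA1 libraries, against 69.6, 90 and 81.7 CPM in the DMSO libraries. Their log2 changes were 1.06 ± 0.14 and 0.99 ± 0.14 (edgeR adjusted p = 9.94e-06 and 3.08e-05), with no overlap between groups. The call of Dhcr7 was lost without BafA1 replicate 2 or 3 or DMSO replicate 1 or 2 (edgeR adjusted p = 0.0888, 0.0508, 0.075 and 0.103). Ebp (-0.082) and Tm7sf2 (-0.20) did not pass.

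Regulators of the pathway gave fewer calls, 3 of 12. Insig1, which holds SREBP in the endoplasmic reticulum and is its target, measured 66, 67.2 and 69.1 CPM in the BafA1 libraries, against 24.3, 28.6 and 32.1 CPM in the DMSO libraries, a log2 change of 1.26 ± 0.16 (edgeR adjusted p = 9.03e-06). Stard4, a cytosolic sterol carrier, measured 47.8, 40.8 and 41.4 CPM in the BafA1 libraries, against 21.6, 21.1 and 21.5 CPM in the DMSO libraries. The SREBP genes themselves did not pass. Srebf2 stood at 106, 80.8 and 88.7 CPM in the BafA1 libraries, against 93, 83.4 and 75.5 CPM in the DMSO libraries, and Srebf1 had a log2 change of 0.057. The sterol response element TCACNCCAC was searched on both strands and found in 1.24% of all promoters. Its share in the sterol genes is void, since 26 of 33 members tested had an entry. Hmgcs1, HMG-CoA synthase, held it, shown in capitals.
Hmgcs1, chr13:119690189-119690248, plus strand: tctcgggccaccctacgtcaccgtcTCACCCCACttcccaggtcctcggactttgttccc

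Fatty acid genes were called in both lists examined. Of 17 genes of synthesis and desaturation 4 rose. Acsl3, which activates fatty acids at forming lipid droplets, measured 189, 244 and 176 CPM in the BafA1 libraries, against 83.8, 74.5 and 105 CPM in the DMSO libraries (edgeR adjusted p = 3.56e-05). Scd1, the stearoyl-CoA desaturase, rose by 1.25 ± 0.31, and lost its call without BafA1 replicate 3 or DMSO replicate 1 or 2 (edgeR adjusted p = 0.0513, 0.0577 and 0.0749). The count for synthesis was 2 without any of those 3 libraries. Acaca, the committing carboxylase, did not pass. Of 15 genes of fatty acid uptake and PPAR response 3 rose and 1 fell, and 6 rose with the replicate block. The fatty acid chaperone Fabp4 measured 154, 136 and 133 CPM in the BafA1 libraries, against 14.5, 10.3 and 3.95 CPM in the DMSO libraries, while Lpl, the lipoprotein lipase, measured 1175, 1267 and 938 CPM in the BafA1 libraries, against 2146, 2229 and 1924 CPM in the DMSO libraries. Pparg (0.86), Cd36 (0.13) and Cpt1a (-0.31) did not pass.

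Of 15 lipid droplet genes 5 rose and none fell. Nceh1, a cholesterol ester hydrolase, measured 441, 337 and 298 CPM in the BafA1 libraries, against 196, 169 and 154 CPM in the DMSO libraries, and Abhd5, the activator of triglyceride lipase, 71.9, 58.4 and 55.4 CPM in the BafA1 libraries, against 34.2, 36.6 and 35.1 CPM in the DMSO libraries. Soat1, which esterifies cholesterol, rose by 1.44 ± 0.20. Plin2, the droplet coat protein, had a log2 change of 0.51 and passed only with the block (edgeR adjusted p = 0.000824). Of 14 targets of the sterol sensor LXR and efflux genes 2 fell, and 5 did with the block, Abca1 among them (edgeR adjusted p = 0.042). Apoe, the main apolipoprotein of glia, measured 5294, 5389 and 5006 CPM in the BafA1 libraries, against 8201, 8377 and 6572 CPM in the DMSO libraries (log2 change -0.56 ± 0.16), and the sterol exporter Abcg1 measured 16.9, 21.6 and 14.4 CPM in the BafA1 libraries, against 55.8, 39.4 and 29.9 CPM in the DMSO libraries (log2 change -1.28 ± 0.37). Each lost its call in 5 of the 6 fits with a library left out. The edgeR adjusted p was at its highest for Apoe without DMSO replicate 2 (0.112), at 0.108 without DMSO replicate 1 and at 0.0703, 0.0654 and 0.075 without BafA1 replicates 1, 2 and 3. For Abcg1 it was 0.109, 0.0555 and 0.136 without these and 0.205 and 0.065 without DMSO replicates 1 and 2, and 0.06 by limma-voom. Of 14 eicosanoid genes 4 fell, and 2 did without BafA1 replicate 3 or DMSO replicate 1 or 2. Hpgd, which breaks down prostaglandins, measured 97.7, 62.4 and 51.4 CPM in the BafA1 libraries, against 316, 302 and 224 CPM in the DMSO libraries, and Ptgs1, cyclooxygenase 1, measured 62.6, 52.8 and 40.1 CPM in the BafA1 libraries, against 92.7, 103 and 93.5 CPM in the DMSO libraries (edgeR adjusted p = 2.9e-05 and 0.00505). Ptgs2 had a log2 change of -0.089 and did not pass.

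The integrated stress response, in which phosphorylation of eIF2α slows translation and favours ATF4, gave 4 rises among 18 regulators and 8 with the replicate block. Atf4 measured 519, 476 and 575 CPM in the BafA1 libraries, against 181, 161 and 236 CPM in the DMSO libraries, a log2 change of 1.44 ± 0.19 (edgeR adjusted p = 9.03e-06). Atf3, a factor induced by ATF4, measured 197, 173 and 182 CPM in the BafA1 libraries, against 54.8, 73.1 and 46.5 CPM in the DMSO libraries, a log2 change of 1.67 ± 0.16 (edgeR adjusted p = 1.34e-07). Chac1, a glutathione-degrading enzyme, measured 7.62, 6.4 and 5.22 CPM in the BafA1 libraries, against 1.54, 0.469 and 1.32 CPM in the DMSO libraries, near the floor of 3 counts in DMSO. Ddit3, which encodes CHOP, and Trib3, an ATF4 inhibitor, passed with the block (edgeR adjusted p = 0.00735 and 0.0147, and 0.0681 and 0.0511 without). Of 20 genes of amino acid synthesis and transport 6 rose and none fell, and all 6 kept the call whichever library was left out. Slc7a11, the cystine importer, measured 41.5, 28 and 41.8 CPM in the BafA1 libraries, against 12, 15 and 13.6 CPM in the DMSO libraries, and Slc3a2, its heavy chain, 408, 478 and 405 CPM in the BafA1 libraries, against 246, 238 and 246 CPM in the DMSO libraries. Mthfd2 and Mthfd1l of mitochondrial folate metabolism rose by 1.17 ± 0.20 and 1.52 ± 0.28. Psat1 (0.053), Shmt2 (0.066) and Slc7a5 (0.28) did not pass, nor did Asns without the block (0.82 ± 0.29).

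The amino acid response element TGATGNAA, searched on both strands, occurred in 3 of 12 promoters (25.0%) of the 10 stress and amino acid genes called higher. Among the members tested it occurred in 9 of 41 (22.0%), and in 3.97% of all promoters. The share was 2.29% among promoters of all genes tested and 3.79% among those of all genes called higher. Too few genes of these sets had an entry, as above, so both shares are void as comparisons. The 3 genes are shown with the first match in capitals.
Chac1, chr2:119351024-119351083, plus strand: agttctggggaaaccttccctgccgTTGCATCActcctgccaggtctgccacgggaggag
Atf3, chr1:191183409-191183468, minus strand: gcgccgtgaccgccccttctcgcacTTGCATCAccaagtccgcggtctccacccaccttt
Slc7a11, chr3:50443645-50443704, minus strand: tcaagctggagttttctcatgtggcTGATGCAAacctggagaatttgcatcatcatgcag
In Slc7a11 the same letters recur on the other strand within the window, in lower case.

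Of 20 cytosolic aminoacyl-tRNA synthetases 2 rose, against 4.57% of all genes, and 5 did with the replicate block. Sars (0.75) lost the call without DMSO replicate 1 (edgeR adjusted p = 0.073). Eprs (0.58) lost it in 5 of the 6 fits with a library left out, all but that without DMSO replicate 3 (edgeR adjusted p = 0.0642 to 0.234), and with upper-quartile scaling (0.0535). Of 28 translation factors and regulators 5 rose and 2 fell. Eif4ebp1, the brake on cap-dependent translation and a target of ATF4, measured 49.1, 49.6 and 47.4 CPM in the BafA1 libraries, against 20.9, 27.2 and 19.3 CPM in the DMSO libraries, and Eif1a, an initiation factor, 218, 222 and 244 CPM in the BafA1 libraries, against 96.4, 127 and 124 CPM in the DMSO libraries. Rps6ka1, the kinase RSK1, measured 14.4, 18.4 and 19.7 CPM in the BafA1 libraries, against 42.8, 58.1 and 31.2 CPM in the DMSO libraries, a log2 change of -1.33 ± 0.31 (edgeR adjusted p = 0.00615, and 0.0506 without DMSO replicate 2). Of 18 chaperones of the endoplasmic reticulum 2 rose, Ero1a, also counted in the HIF and glycolysis lists, and Hspa5. Hspa5, which encodes BiP, stood at 864, 834 and 859.6 CPM in the BafA1 libraries, against 608, 594 and 658 CPM in the DMSO libraries and was not called without a filter (edgeR adjusted p = 0.0759). None of 15 other genes of the unfolded protein response passed (edgeR; 1 was higher with the block), Xbp1 (0.18) and Herpud1 (-0.061) among them. Of 15 heat shock genes 2 rose (with the block 4 rose and 1 fell), Hsp90aa1 (0.72) and Hspa9 (0.61), the second not without BafA1 replicate 1 or 3 or DMSO replicate 1 or 2 (edgeR adjusted p = 0.115, 0.201, 0.159 and 0.177). Of 27 proteasome genes 1 rose, Psmb6 (0.79 ± 0.13), which is 3.7%, against 4.57% of all genes.

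Of 22 genes of NRF2, the factor of the antioxidant response, 8 rose and none fell (median 0.36), and 5 rose without BafA1 replicate 1. Among the 8, Slc7a11 was also counted with the amino acid genes and Hmox1 with the iron genes. Nfe2l2, which encodes NRF2, measured 329, 235 and 264 CPM in the BafA1 libraries, against 158, 175 and 146 CPM in the DMSO libraries, a log2 change of 0.79 ± 0.15 (edgeR adjusted p = 0.000842). Srxn1, which repairs peroxiredoxins, measured 79.1, 87.2 and 83.1 CPM in the BafA1 libraries, against 51.1, 45.5 and 45.2 CPM in the DMSO libraries, and Hmox1, the heme oxygenase, 582, 605 and 489 CPM in the BafA1 libraries, against 329.6, 344 and 337 CPM in the DMSO libraries. These did not overlap, whereas Gclm (0.24), Gsr (0.064) and Cat (-0.20) did not pass. The antioxidant response element TGACNNNGC, searched on both strands, occurred in 12.4% of all promoters, and its share in the NRF2 genes is void, since 17 of 22 members tested had an entry.

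Transcription factors changed in both directions. Of 23 immediate early genes 5 rose and 4 fell, with 3 higher without BafA1 replicate 1 or 3 or DMSO replicate 2 and 2 lower without DMSO replicate 1. Maff, a small Maf protein, measured 25.8, 25.6 and 41.4 CPM in the BafA1 libraries, against 12.3, 6.09 and 7.03 CPM in the DMSO libraries. Jun measured 120.2, 105 and 143 CPM in the BafA1 libraries, against 43.1, 48.3 and 79 CPM in the DMSO libraries, whereas Fos, its AP-1 partner, measured 38.5, 31.2 and 36.1 CPM in the BafA1 libraries, against 73.6, 81.1 and 85.6 CPM in the DMSO libraries. Egr2, a macrophage factor, rose by 1.65 ± 0.33, while Egr1 had a log2 change of 0.27 and did not pass. Klf2, a quiescence factor of myeloid cells, measured 16.5, 14.4 and 10.8 CPM in the BafA1 libraries, against 41.6, 33.3 and 43.5 CPM in the DMSO libraries, a log2 change of -1.51 ± 0.26 (edgeR adjusted p = 0.000442). Groups did not overlap in any of the 4 genes given by library. Of 14 clock genes 4 rose, among them Bhlhe40, also counted with the HIF effectors. Rora, a nuclear receptor that activates Arntl, measured 171, 146 and 141 CPM in the BafA1 libraries, against 72.4, 70.3 and 78.6 CPM in the DMSO libraries, and Bhlhe41, a clock repressor that macrophages also use, 349, 349.7 and 290.3 CPM in the BafA1 libraries, against 110, 138 and 103 CPM in the DMSO libraries. Arntl (-0.047), Dbp (-0.0051) and Nr1d1 (0.32) did not pass. Among the 13 genes of the 7SK complex and transcription elongation 1 passed (7.69%, against 7.14% of all genes). It was the 7SK RNA itself, Rn7sk, at 42.7, 31.2 and 22.9 CPM in the BafA1 libraries, against 412, 234 and 188 CPM in the DMSO libraries. This small RNA has many near-identical copies and no poly(A) tail, so its tag counts are uncertain. Its protein partners Larp7 (0.18), Mepce (-0.18) and Hexim1 (-0.31) did not pass.

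Of 23 surface and secreted genes of homeostatic microglia 2 rose and 5 fell, with 12 lower under the replicate block (median -0.39). Cx3cr1, the fractalkine receptor, measured 1306, 1136 and 1013 CPM in the BafA1 libraries, against 2645, 2796 and 2062 CPM in the DMSO libraries, a log2 change of -1.12 ± 0.20 (edgeR adjusted p = 0.000511). P2ry6, a UDP receptor tied to phagocytosis, measured 27.5, 16 and 19.3 CPM in the BafA1 libraries, against 56.4, 49.2 and 35.1 CPM in the DMSO libraries, and Olfml3, a secreted protein, 52, 60.8 and 43.8 CPM in the BafA1 libraries, against 89.3, 111 and 69.4 CPM in the DMSO libraries. Tmem119 changed by -1.21 ± 0.29 at low counts, and was not called without a filter or with the 6 libraries alone (edgeR adjusted p = 0.0953 and 0.0905). Cd33, an inhibitory sialic acid receptor, went the other way and measured 140, 169.6 and 126 CPM in the BafA1 libraries, against 58.8, 52.5 and 40 CPM in the DMSO libraries, a log2 change of 1.51 ± 0.19 (edgeR adjusted p = 4.62e-06). Csf1r (-0.30), Trem2 (0.21) and Tyrobp (0.0022) did not pass. Of 18 lineage factors 2 rose and 3 fell, with 7 lower under the block. Mef2c, a factor that restrains microglial activation, measured 378, 393 and 249 CPM in the BafA1 libraries, against 886, 1107 and 741 CPM in the DMSO libraries, and Ikzf1, which encodes Ikaros, 64.7, 48 and 55.8 CPM in the BafA1 libraries, against 116, 129.9 and 84.3 CPM in the DMSO libraries. Spi1, which encodes PU.1, had a log2 change of -0.39, Irf8 -0.21 and Sall1 -0.96, and none passed without the block.

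Summed markers of other cells moved in part with these. The 12 oligodendrocyte lineage markers summed to 350.3, 390 and 454 CPM in BafA1 libraries and 631, 689 and 709 CPM in DMSO libraries, and none was at 0 in all 6. Of 11 of them tested, 5 fell: Pdgfra, Olig1, Olig2, Sox10 and Cspg5. Olig2, a lineage factor, measured 28.8, 30.4 and 33.7 CPM in the BafA1 libraries, against 66.8, 72.2 and 63.2 CPM in the DMSO libraries, a log2 change of -1.12 ± 0.21 (edgeR adjusted p = 0.00115), and Cspg5, a proteoglycan of the lineage, 57.5, 57.6 and 50.6 CPM in the BafA1 libraries, against 129, 90.9 and 101 CPM in the DMSO libraries. Mbp, a myelin gene, did not pass (-0.41). The 9 neuron markers summed to 306, 317 and 352 CPM in BafA1 libraries and 402, 444 and 423 CPM in DMSO libraries, and the 11 astrocyte markers, of which Gjb6 was at 0 in all 6, to 168, 195 and 357 CPM in BafA1 libraries and 206, 245 and 397 CPM in DMSO libraries. The 11 fibroblast and vessel markers summed to 63.6, 34.0 and 171 CPM in BafA1 and 76.3, 48.0 and 213 CPM in DMSO, and the 9 border macrophage markers to 665, 643 and 639 CPM in BafA1 and 649.5, 529 and 599.7 CPM in DMSO, with none at 0 in all 6. Of the neuron, astrocyte and border macrophage genes none passed (edgeR; 1 border gene did with the block), and Pecam1, an adhesion molecule of endothelium and leukocytes, fell by 2.23 on the log2 scale. The part of these cells in the microglial results was not tested.

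Among 28 genes of disease-associated microglia 4 rose and 3 fell, and with the replicate block 8 and 5. Lgals3, galectin 3, measured 833, 903 and 886 CPM in the BafA1 libraries, against 278, 286 and 227 CPM in the DMSO libraries, a log2 change of 1.73 ± 0.23 (edgeR adjusted p = 1.29e-05). Without BafA1 replicate 1 the number higher was 2. Spp1 (0.12), Itgax (0.015), Axl (-0.0072) and Cst7 (-0.0094) did not pass. Of 25 phagocytic, scavenger and Fc receptors 3 rose and 1 fell, and with the replicate block 6 and 3. Colec12, a collectin scavenger receptor, measured 317, 362 and 302 CPM in the BafA1 libraries, against 149, 165 and 135 CPM in the DMSO libraries. The inhibitory Fc receptor Fcgr2b measured 139, 123 and 112 CPM in the BafA1 libraries, against 73, 66.6 and 58.4 CPM in the DMSO libraries, and the activating receptor Fcgr1 measured 14, 13.6 and 12 CPM in the BafA1 libraries, against 48.1, 42.2 and 38.6 CPM in the DMSO libraries (edgeR adjusted p = 0.00767 and 0.000169). Mrc1 (-0.079), Mertk (-0.33) and Itgam (-0.23) did not pass.

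Among myeloid C-type lectin receptors, 5 of 10 tested fell and 1 rose (2 with the replicate block), and all 6 kept the call whichever library was left out. Clec4b1 measured 2.96, 2.4 and 2.41 CPM in the BafA1 libraries, against 16.3, 14.1 and 16.2 CPM in the DMSO libraries, and Clec4a2, an inhibitory receptor of dendritic cells, 37.2, 36.8 and 15.3 CPM in the BafA1 libraries, against 111, 114 and 74.7 CPM in the DMSO libraries. Clec4a1 and Clec4a3 changed by -1.93 ± 0.30 and -1.58 ± 0.37. These 4 genes lie in a cluster of similar sequences, so reads may be split between them. Clec4n, dectin-2, measured 177, 152 and 131 CPM in the BafA1 libraries, against 269, 264 and 199 CPM in the DMSO libraries, and Clec4e, the mincle receptor, measured 66.8, 93.6 and 53.4 CPM in the BafA1 libraries, against 32, 27.2 and 22.8 CPM in the DMSO libraries (edgeR adjusted p = 0.00509 and 0.000846). Clec7a, dectin-1, stood at 357, 355 and 289.9 CPM in the BafA1 libraries, against 289, 252 and 217 CPM in the DMSO libraries, and passed only with the block (edgeR adjusted p = 0.00611).

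**Figure D4:**
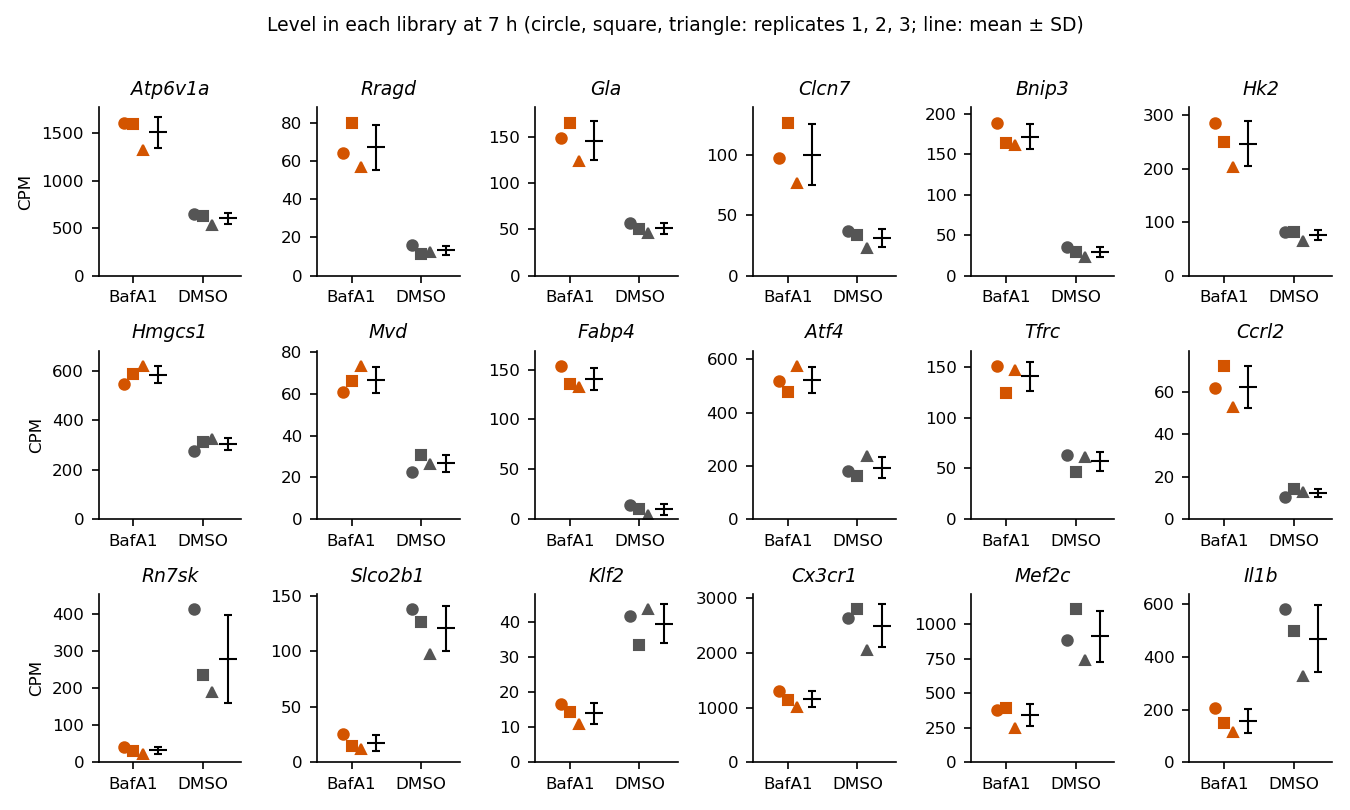
CPM (vertical axes, each starting at 0) in the 3 BafA1 libraries (left in each panel) and the 3 DMSO libraries (right) at 7 h for 18 genes. Circles, squares and triangles are replicates 1, 2 and 3, and lines are means ± SD; for Cx3cr1 the BafA1 libraries sit between 1013 and 1306 CPM and the DMSO libraries between 2062 and 2796 CPM.

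Of 18 chemokine and receptor genes 4 rose and 2 fell, with 4 lower under the replicate block and 1 lower without BafA1 replicate 1 or 3 or DMSO replicate 1 or 2. Ccrl2, a chemerin-binding receptor that does not signal, measured 61.8, 72 and 52.6 CPM in the BafA1 libraries, against 10.2, 14.1 and 12.7 CPM in the DMSO libraries, and Cxcr4, the receptor of Cxcl12, 113, 86.4 and 81.5 CPM in the BafA1 libraries, against 41.9, 35.2 and 30.3 CPM in the DMSO libraries. Their log2 changes were 2.33 ± 0.22 and 1.38 ± 0.25 (edgeR adjusted p = 1.34e-07 and 0.000567), with no overlap between groups. The ligands Ccl3 and Ccl4 rose by 1.17 ± 0.22 and 1.30 ± 0.26 (edgeR adjusted p = 0.000883 and 0.0015) and kept the call whichever library was left out. The ligand Cxcl14 changed by -0.58 ± 0.15 (edgeR adjusted p = 0.0194), and its call was lost without BafA1 replicate 1 or 3 or DMSO replicate 1 or 2 (0.0665, 0.0913, 0.075 and 0.0947 by edgeR) and without a filter (0.0759). Other ligands such as Cxcl2 (0.43), Ccl2 (0.19) and Ccl5 (-0.37) did not pass. In the list of IL-1 family, inflammasome and TNF genes 2 of 23 rose and 2 fell, with 1 higher without BafA1 replicate 1 or DMSO replicate 1 or 3. Acod1, which makes itaconate, measured 20.3, 21.6 and 27.3 CPM in the BafA1 libraries, against 6.47, 8.91 and 3.07 CPM in the DMSO libraries, and Il1b 206, 148 and 116 CPM in the BafA1 libraries, against 580.1, 499 and 329 CPM in the DMSO libraries (log2 change -1.58 ± 0.34). Pycard, the inflammasome adaptor ASC, changed by -1.08, and lost its call, leaving 1 gene lower, without BafA1 replicate 2 or 3 or DMSO replicate 1 (edgeR adjusted p = 0.0551, 0.0832 and 0.0897). Tnf (0.48), Nlrp3 (0.30) and Nfkbia (0.17) did not pass.

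Of 22 interferon response genes 3 fell and none rose (median -0.47), and 5 fell with the block. Isg15, a ubiquitin-like protein, measured 2.96, 3.2 and 2.81 CPM in the BafA1 libraries, against 14.2, 6.09 and 9.66 CPM in the DMSO libraries. No interferon gene was called without BafA1 replicate 3 or DMSO replicate 1, and 1 was without DMSO replicate 2; for Isg15 the edgeR adjusted p was 0.0586, 0.0648 and 0.124 without BafA1 replicates 1 and 3 and DMSO replicate 1. Of 14 antigen presentation genes 1 fell, and with the block 2 were lower and 1 higher. The share called without the block, 7.14%, was that of all genes. Tap1, a peptide transporter, fell (-0.93), and it lost its call without BafA1 replicate 2 or 3 or DMSO replicate 1 or 2 (edgeR adjusted p = 0.0651, 0.0741, 0.0876 and 0.0676). Among growth factors and receptors 5 of 20 rose, and 3 did without BafA1 replicate 1 or DMSO replicate 2. Vegfb, a relative of Vegfa, measured 49.5, 52 and 48.6 CPM in the BafA1 libraries, against 13.6, 18.3 and 23.7 CPM in the DMSO libraries, and Nrp2, a neuropilin, 341, 322 and 330 CPM in the BafA1 libraries, against 175, 197 and 166 CPM in the DMSO libraries. Of 20 purinergic receptors and ion channels 3 rose and 2 fell, and with the block 5 and 4. The number higher was 1 without BafA1 replicate 2 or DMSO replicate 1, and the number lower was 1 without BafA1 replicate 2 or 3 or DMSO replicate 1 or 2. Piezo1, a mechanically gated channel, measured 83.8, 112 and 98.8 CPM in the BafA1 libraries, against 23.7, 29.5 and 34.7 CPM in the DMSO libraries, a log2 change of 1.75 ± 0.22 (edgeR adjusted p = 4.52e-06). In the list of 16 matrix proteases and inhibitors 4 rose and none fell, and with the block 6 and 1. Plau, the urokinase, measured 102, 88.8 and 98 CPM in the BafA1 libraries, against 22.2, 23.4 and 36 CPM in the DMSO libraries, and its receptor Plaur 34.7, 50.4 and 34.9 CPM in the BafA1 libraries, against 12.9, 11.2 and 14.9 CPM in the DMSO libraries. Adam17, the sheddase of TNF, measured 817, 963 and 734 CPM in the BafA1 libraries, against 491, 462 and 399 CPM in the DMSO libraries.

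Cell cycle, ribosome and mitochondrial genes gave little. No gene of 19 for mitosis passed (edgeR; 3 were lower with the block, 3 were also lower without BafA1 replicate 3, and the median log2 change was -0.17). Of 20 for DNA replication 1 rose (2 with the block), or 5%, near the 4.57% of all genes. It was Cdt1, which licenses origins, at 71.5, 61.6 and 65 CPM in the BafA1 libraries, against 30.2, 23.9 and 33.8 CPM in the DMSO libraries. None of 86 ribosomal protein genes passed (edgeR; 1 was lower with the block; median -0.079), nor any of 23 genes of the mitochondrial genome (none with the block; median -0.17). Of 18 p53 targets 2 rose and 2 fell, with 1 higher in 5 of the 6 fits with a library left out. Mdm2, which marks p53 for destruction, lost its call in those fits (edgeR adjusted p = 0.0551 to 0.204) and with upper-quartile scaling (0.057 by edgeR), and Cdkn1a, the cell cycle inhibitor p21, had a log2 change of 0.024 and did not pass. Of 14 feedback regulators of MAPK and cytokine receptors 2 rose, the phosphatases Dusp1 (0.90 ± 0.17) and Dusp3 (0.77 ± 0.14).

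The 10 most abundant genes called, by 3′ tag CPM, had log2 changes between -1.12 (Cx3cr1) and 0.99 (Ctnnb1). Actb, cytoplasmic actin, measured 7678, 6966 and 6218 CPM in the BafA1 libraries, against 9531, 9958 and 9297 CPM in the DMSO libraries, a log2 change of -0.46 ± 0.12 (edgeR adjusted p = 0.0191). Its call was lost without BafA1 replicate 2 or 3 or DMSO replicate 1 or 2 (edgeR adjusted p = 0.0632, 0.0785, 0.0602 and 0.0757), and with the 6 libraries alone (0.0632 by edgeR). Lyz2, the myeloid lysozyme, measured 3338, 3137 and 3421 CPM in the BafA1 libraries, against 5033, 5335 and 4618 CPM in the DMSO libraries. Sdcbp, syntenin, which sorts cargo into exosomes, measured 3039, 2855 and 2423 CPM in the BafA1 libraries, against 1735, 1347 and 1169 CPM in the DMSO libraries, and Ctnnb1, beta-catenin, 2162, 2204 and 1918 CPM in the BafA1 libraries, against 1072, 1095 and 988 CPM in the DMSO libraries. Sdcbp and Ctnnb1 rose by 0.97 ± 0.18 and 0.99 ± 0.12 (edgeR adjusted p = 0.000683 and 2.75e-06), with no overlap. Psap, the precursor of saposins, rose by 0.68, and lost its call without BafA1 replicate 1 or 2 or DMSO replicate 1 or 3 (edgeR adjusted p = 0.0516, 0.133, 0.0608 and 0.0735).

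The 7 h effect was then set against the effects at the other times, each BafA1 over DMSO of its own time with no library shared. At 1 h no gene passed (edgeR). There 380 genes had an unadjusted edgeR p under 0.05, fewer than a 0.05 share of the genes tested, against 2367 at 7 h. The 7 h effect was above that at 1 h in 199 genes (1.57%) and below it in 83 (0.656%), together 2.23% of those tested. Of the 903 genes called at 7 h, 731 were called in the same direction at 14 h and 698 at 22 h, and 2 and 23 in the opposite direction. Of all genes tested 24.1% were called at 14 h and 39.9% at 22 h. The 7 h effect differed from the 14 h effect in 286 genes (2.26%), above it in 1.53% and below it in 0.735%. It differed from the 22 h effect in 2023 (16.0%), above it in 10.1% and below it in 5.94%. The number differing from 14 h was 167 without DMSO replicate 1 and 180 without BafA1 replicate 2.

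The median effect on cholesterol synthesis was larger at 7 h than at the other times. The median log2 change of its 21 enzymes was -0.05 at 1 h, 0.99 at 7 h, 0.23 at 14 h and -0.26 at 22 h. The 7 h effect was above the 22 h effect in 15 of the 21 and above the 14 h effect in 2. Hmgcs1 had log2 changes of 0.94 at 7 h, 0.14 at 14 h and -0.57 at 22 h (edgeR adjusted p of the differences = 0.00765 and 7.18e-07). Acat2 had 1.35, 0.059 and -0.67 at these times (0.00647 and 1.03e-05 by edgeR). For Acsl3 they were 1.20, -0.10 and -0.53. Glycolysis differed, with medians of -0.01 at 1 h, 0.89 at 7 h, 1.26 at 14 h and 1.02 at 22 h, and a 7 h effect above the 22 h effect in 3 of 25 genes and below it in 3. Among NRF2 genes the 7 h effect was below the 14 h effect in 11 of 22 and below the 22 h effect in 13. Slc7a11 had log2 changes of 1.49 at 7 h, 4.44 at 14 h and 4.30 at 22 h. For endoplasmic reticulum chaperones 13 of 18 had a 7 h effect below that at 22 h, Hspa5 among them (0.46 and 2.22).

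**Figure D5:**
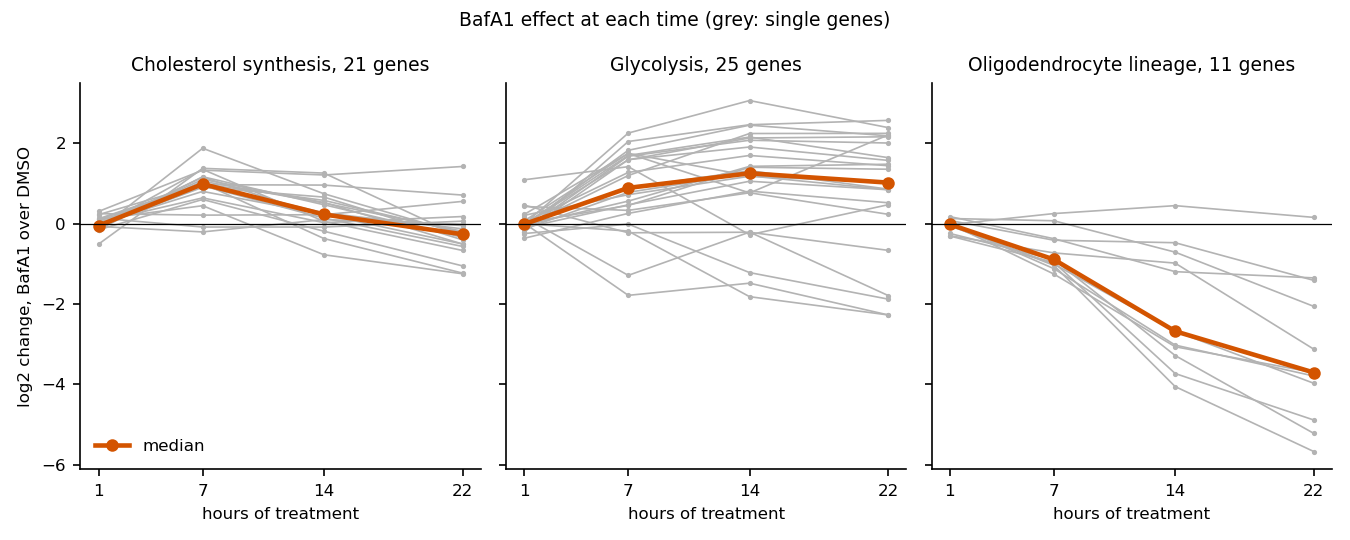
Log2 change, BafA1 over DMSO of the same time (vertical axis), at 1, 7, 14 and 22 h (horizontal axis). Grey lines are single genes and orange lines their medians; the sterol median is 0.99 at 7 h and -0.26 at 22 h, the glycolysis median 1.02 at 22 h, and the oligodendrocyte median -3.71 at 22 h.

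In all, 21 genes called at 7 h had an effect there larger in size than at both 14 h and 22 h with both differences called, 17 of them higher and 4 lower in BafA1. This number was 7 without BafA1 replicate 3 or DMSO replicate 1, 8 without BafA1 replicate 2 or DMSO replicate 2, and 40 without DMSO replicate 3. Isg15 had log2 changes of -1.76 at 7 h, 0.67 at 14 h and 0.29 at 22 h. Exog, a mitochondrial nuclease, measured 11.4, 15.2 and 11.6 CPM in the BafA1 libraries, against 32, 38.9 and 23.7 CPM in the DMSO libraries, and had log2 changes of -1.33, 0.18 and -0.26 at the same times. Rpgrip1, a ciliary protein, measured 5.5, 14.4 and 11.6 CPM in the BafA1 libraries, against 1.85, 0.469 and 3.07 CPM in the DMSO libraries, and Rtl5, a retrotransposon-derived gene, 0, 0.8 and 0 CPM in the BafA1 libraries, against 6.16, 3.28 and 10.5 CPM in the DMSO libraries. Both were near the floor in the group where they were low. The 7SK RNA gene Rn7sk was lower by a like amount at 14 h (-3.15) and not at 22 h (0.41; edgeR adjusted p of the difference from 7 h = 3.94e-05).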

How the data were processed

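RNA of microglia cultures was sequenced as QuantSeq FWD 3′ tags with molecular identifiers to remove PCR duplicates, per the labels' protocols, so values count transcript 3′ ends and give no isoform. The deposited table holds estimated counts per gene for 24 libraries, of which 37.1% are not whole; the tool (Salmon, version not given in the sources used here) and the build (GRCm39) come from the submitters' processing notes. A deposited table of log2 CPM differed by at most 0.0012 from log2 CPM recomputed here, and was used for that check alone.

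Estimated counts were rounded to whole numbers, filtered with filterByExpr (the genes left out hold 0.701% of counts), scaled by TMM and fitted over all 24 libraries with 1 coefficient per group in edgeR 4.0.16 (R 4.3.3), with quasi-likelihood tests and Benjamini-Hochberg adjustment over 12648 genes. Fitted log2 changes use the default prior count of edgeR, and log2 CPM values a prior count of 2. Each SE was derived as the size of the log2 change divided by the square root of the F statistic of its test. CPM values of single genes are counts scaled to the size of the library after TMM. Summed marker CPM and the CPM of the floor use the library size without TMM. Genes were called at an adjusted p under 0.05. "With the replicate block" means the same fit with the replicate number added. The numbers pair the samples: deviations from the group means correlated at 0.16 to 0.31 for same-numbered BafA1 and DMSO libraries at 7 h, and at -0.252 to 0.0305 for others (0.143 to 0.339 and -0.303 to 0.114 over all times). The main fit does not use this pairing, so genes said not to pass may pass with the block. Of 367 genes looked up singly, 21 that the main fit did not call passed with it. With the block 18 HIF effectors, 8 upper and 8 lower glycolysis genes and 8 late sterol enzymes were higher. On simulated data of these libraries the test recovered 38 of 100 genes changed 2-fold and 79 of 100 changed 4-fold, and 0.847% of its calls were unchanged genes. These counts were drawn from the fitted model itself, with no replicate effect and no BafA1 effect at other times. They therefore do not give the share of false calls in the real data. DESeq2 1.42.0 and limma 3.58.1 (voom), other scalings and filters, a fit of the 6 libraries alone and leaving out each library were alternatives.

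Genes named are the 15 largest rises and 15 largest falls among calls at or above 3 in mean log2 CPM whose groups do not overlap, the 10 most abundant called genes, any member of the 59 gene lists, and the 10 largest changes that exceed those at 14 h and 22 h; some of these are not reported here. Lists, members and tests were chosen with earlier results of these data known. Promoters are RefSeq entries of GRCm38.p6, not the build of the counts. Entries of a single chromosome were left out, so all promoters means those of the other chromosomes. How reads of near-identical copies were divided is not given in the sources used here.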

Additional observations from a re-analysis of the deposited data

Results flagged for a closer look

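The BafA1 effect at 7 h differed from that at another time by the test of the difference itself (edgeR) in 282 genes against 1 h, 286 against 14 h and 2023 against 22 h. In 21 genes called at 7 h the effect was larger in size there than at both 14 h and 22 h. The 10 largest of these are given with their log2 change at 7 h first. Rtl5 had -4.96 at 7 h, -0.43 at 14 h and -1.02 at 22 h, and Isg15 -1.76, 0.67 and 0.29. Olfr3 had 3.35, -0.82 and -0.93, Vmn2r23 2.66, -0.67 and -1.27, and Rpgrip1 2.46, -0.68 and -0.43. Olfr3 stood at 2.54, 9.6 and 6.42 CPM in the BafA1 libraries, against 0, 0 and 1.76 CPM in the DMSO libraries, and Vmn2r23 at 5.5, 16 and 15.7 CPM in the BafA1 libraries, against 0.616, 0 and 5.27 CPM in the DMSO libraries. Rtl5 and Olfr3 had libraries at 0 in the lower group, as did Vmn2r23, so their fitted sizes depend on the prior count. The calls of Olfr3 and Vmn2r23 at 7 h were lost without DMSO replicate 1 (edgeR adjusted p = 0.0959 and 0.0954) or DMSO replicate 2 (0.0669 and 0.0557 by edgeR), that of Olfr3 also without BafA1 replicate 2 (0.0592) and that of Vmn2r23 without BafA1 replicate 3 (0.0642). Acat2 had 1.35, 0.059 and -0.67, Acsl3 1.20, -0.10 and -0.53, and Hmgcs1 0.94, 0.14 and -0.57. Exog, a mitochondrial nuclease, had -1.33, 0.18 and -0.26. Ehd1, an endosome-recycling ATPase, had -0.52, 0.31 and 0.11, and its call at 7 h was lost whichever library was left out (edgeR adjusted p = 0.0769 to 0.104). Groups of 3 libraries were too small for a test of single outlying libraries.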

How the results depend on the processing

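The replicate block kept all 903 calls and gave 1555, with 906 higher and 649 lower. It gave 678, 891 and 3225 genes whose 7 h effect differed from that at 1 h, 14 h and 22 h, and 60 with a larger effect at 7 h than at 14 h and 22 h, and beside the list counts and genes given with it, it ended no call. The 6 libraries at 7 h with the replicate block gave 1638 genes, with 1033 higher and 605 lower, and without it 865. RLE scaling gave 905, upper-quartile scaling 949, no filter 851, a stricter filter 940, DESeq2 1043 and limma-voom 877. Of the 903 calls these kept 894, 871, 698, 898, 891 and 824, and the 6 libraries without the block 752. The test without a filter ran on 41123 genes. Among the 263 called genes looked up one by one, 23 lost the call without a filter, 9 with upper-quartile scaling, 9 with the 6 libraries alone and 6 with limma-voom, and none with RLE scaling, the stricter filter or DESeq2. Optn was among those lost without a filter and with upper-quartile scaling, Hspa9 with upper-quartile scaling, and Ehd1 without a filter and with the 6 libraries alone. In 19 list counts that were 0 in a direction, 1 or more genes passed with the block. Without a filter 435 genes differed between 7 h and 14 h. DESeq2 gave 424 genes that differed from 1 h, 435 from 14 h and 37 with a larger effect at 7 h. With each library left out the count was 573 to 804, with 410 to 518 higher and 163 to 286 lower. It was 192 to 252 against 1 h, 167 to 277 against 14 h, 1507 to 1856 against 22 h and 7 to 40 for the larger effects. Leaving out a library lowers the number of samples. None of the 903 calls reversed under any of these settings. For the other moved counts the cause was not tested. Libraries of 1322169 to 3187209 counts put 3 counts at 0.941 to 2.27 CPM, which limits what can be seen of genes near those levels.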

Other observations

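The genes given here were chosen after their values were seen. Among genes that position or tether endosomes and lysosomes, Rab7b measured 559, 483 and 440.4 CPM in the BafA1 libraries, against 273, 227 and 207 CPM in the DMSO libraries, and Eea1, an early endosome tether, 137, 149.6 and 148 CPM in the BafA1 libraries, against 46.8, 55.3 and 61 CPM in the DMSO libraries. Plekhm2, which links Arl8 to kinesin, rose by 1.25 ± 0.17, Rilpl2, a Rab effector, by 1.52 ± 0.24, and C9orf72, part of a lysosomal exchange factor complex, by 1.30 ± 0.15 (log2 ± SE; edgeR adjusted p = 1.84e-05, 0.000124 and 1.54e-06). Other genes seen act in sphingolipid synthesis or lipid transfer, with no tally of those pathways. Cert1, which carries ceramide to the Golgi, measured 92.7, 71.2 and 80.3 CPM in the BafA1 libraries, against 33, 31.9 and 27.2 CPM in the DMSO libraries, and Ugcg, glucosylceramide synthase, 39.4, 34.4 and 32.5 CPM in the BafA1 libraries, against 15.7, 15.9 and 19.3 CPM in the DMSO libraries. Kdsr and Sgms1, of ceramide and sphingomyelin synthesis, rose by 1.12 ± 0.24 and 0.79 ± 0.17, and Osbpl8, a lipid exchanger at membrane contacts, by 1.12 ± 0.14. All 10 of these genes had no overlap between groups and kept their calls whichever library was left out.

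Of the BCL2 family, which was not tallied, 4 genes are given, and they do not describe the family. Its members Bcl2a1a, Bcl2a1b and Bcl2a1d were also called, whichever library was left out, and their values are not reported here. The survival genes Bcl2l1, Bcl2 and Mcl1 rose by 1.37 ± 0.17, 1.31 ± 0.23 and 0.70 ± 0.15, and Bmf, which antagonises them, changed by -1.71 ± 0.34 (edgeR adjusted p = 3.39e-06, 0.000502, 0.00378 and 0.00168). Sgk1, a kinase downstream of PI3 kinase, measured 681, 817 and 602 CPM in the BafA1 libraries, against 175, 211 and 173 CPM in the DMSO libraries, and Pmp22, a tetraspan membrane protein, 990.5, 815 and 685 CPM in the BafA1 libraries, against 251, 217 and 171 CPM in the DMSO libraries. Lower were Glul, glutamine synthetase, at 273, 209.6 and 173 CPM in the BafA1 libraries, against 610, 556 and 452 CPM in the DMSO libraries, and Sting1, the sensor of cyclic dinucleotides, at 36.4, 27.2 and 28.9 CPM in the BafA1 libraries, against 78.9, 71.3 and 43 CPM in the DMSO libraries. Arrdc3 and Txnip, arrestin family members, and Tsc22d3, a glucocorticoid target, changed by -1.68 ± 0.32, -0.89 ± 0.16 and -1.70 ± 0.26 (log2; edgeR adjusted p = 0.0012, 0.000495 and 7.86e-05).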
